A study of Mus musculus with 6 samples.

Results

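The circadian clock genes described here are 10 genes of the core daily timer, chosen by symbol: Arntl, Clock, Per1, Per2, Per3, Cry1, Cry2, Nr1d1, Nr1d2 and Dbp. All 10 were found among the 55421 mouse genes of the count table, and all 10 were among the 18838 that passed the filter on low counts. RNA was measured in 6 femur libraries from C57BL/6 mice of 12 weeks labelled WT, with 3 libraries from control animals and 3 from animals after phlebotomy (blood removal). The fraction was enriched for osteocytes, which sit within the mineralised matrix of bone, and the series asks how its transcripts differ after hemorrhage. The blood volume removed, the interval to collection and the time of day of collection are not given in the labels, so a difference in collection time between groups and the treatment cannot be told apart. The list was proposed with values of these same libraries in view. Differences between control and phlebotomy in the 10 genes are therefore a description, and nothing is supported with them.

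In mammalian cells the clock is a loop of transcription and repression that turns over about daily. BMAL1 (the product of Arntl) and CLOCK pair on E-box elements and switch on the Per and Cry genes, whose proteins return to the nucleus and block that pair. E-boxes also drive the REV-ERB receptors (Nr1d1, Nr1d2), which repress Arntl through ROR elements, and Dbp, a factor that acts on D-box elements of output genes. Bone cells carry such a clock, and osteoblast and osteoclast activity are known to follow it.

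The elements named above were searched in promoter windows of RefSeq (GRCm38.p6, 250 bases before to 50 after a gene's start), on both strands. The table held 13 windows of 9 of the 10 genes and none of Per2. The E-box CACGTG was in the windows of Per1 and Cry1, and in 7.15% of all 32851 windows. The D-box TTATGTAA or TTACGTAA was in that of Per3 (1.06% of all windows), and the ROR element core TAGGTCA in that of Arntl (2.61%). The cyclic AMP element TGACGTCA was in none of the 13 and in 1.79% of all windows. No matches of different motifs overlapped in these 13 windows. The stretches are shown because each holds, in capitals, a sequence through which 1 limb of the loop acts. Those of Per1, Cry1 and Per3 are the bases before the start with no annotated exon, read along the gene's strand, at chr11:69098699-69098947 (plus strand, before a RefSeq start inside the annotated gene), chr10:85185065-85185304 (minus) and chr4:151044666-151044915 (minus), and that of Arntl is a 29-base site in an annotated exon, at chr7:113207530-113207558 (plus).
Per1: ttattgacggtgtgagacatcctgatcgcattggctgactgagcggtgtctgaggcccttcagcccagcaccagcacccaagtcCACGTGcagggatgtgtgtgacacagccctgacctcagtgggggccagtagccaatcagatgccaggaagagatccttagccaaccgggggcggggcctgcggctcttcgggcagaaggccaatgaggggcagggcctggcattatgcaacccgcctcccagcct
Cry1: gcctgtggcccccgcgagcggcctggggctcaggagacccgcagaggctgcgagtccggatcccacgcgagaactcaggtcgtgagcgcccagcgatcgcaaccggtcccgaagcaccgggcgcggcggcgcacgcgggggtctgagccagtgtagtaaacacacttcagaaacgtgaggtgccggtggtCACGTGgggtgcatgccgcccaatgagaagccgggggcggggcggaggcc
Per3: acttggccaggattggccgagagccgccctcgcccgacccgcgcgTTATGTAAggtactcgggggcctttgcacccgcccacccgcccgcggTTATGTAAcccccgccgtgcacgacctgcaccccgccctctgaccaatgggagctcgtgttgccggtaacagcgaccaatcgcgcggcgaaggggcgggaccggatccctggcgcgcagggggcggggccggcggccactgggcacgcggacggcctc
Arntl: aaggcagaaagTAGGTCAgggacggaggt
Per1 and Cry1 thus each hold 1 E-box, 166 and 60 bases before the start, while Per3 holds the D-box 2 times. A match describes these letters and is not a measured binding site.

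Libraries held 11219243 to 19015588 gene counts. They are called control 1, 2 and 4 and phlebotomy 1, 2 and 4 after their column numbers, and columns were tied to groups by initial (P for phlebotomy, N for control by elimination). Phlebotomy 2 lay nearer to the controls than the other phlebotomy libraries did. The first principal component (41.8% of variance) placed controls from -51.4 to -16.6, phlebotomy 1 at 54.9, phlebotomy 4 at 40.2 and phlebotomy 2 at -7.80. Although labelled WT, that library held 2288 counts of a Neo sequence and 920 of EGFP, where other libraries held at most 12 and 6. The difference of each of the 10 genes is therefore also given without it, and those of the other clock genes are plotted without it. Leaving out the phlebotomy library nearest to the controls tends to widen group differences by itself, so those values are no better estimate. For the 10 genes, values without phlebotomy 1, the library farthest from the controls on that component, are given as well. Osteoblast markers summed to 42714 to 66083 CPM (counts scaled to library size) in control and 29797 to 42448 CPM after phlebotomy (6 of 6 members lower), and adipocyte markers to 119 to 137 and 80.7 to 117 CPM (3 of 3 lower). Osteocyte markers, at 22473 to 48434 and 13645 to 24703 CPM, overlapped (6 of 7 lower), as did the erythroid, neutrophil, B cell, monocyte, endothelial, muscle and T cell sums. Marrow cells were also well represented. Neutrophil markers summed to 18737 to 44902 and 25433 to 40780 CPM (3 of 7 lower), and erythroid markers to 10458 to 22594 and 14867 to 22730 CPM (2 of 5 lower). In control 4 the neutrophil sum of 44902 CPM was above the osteocyte sum of 22473 CPM. Of all genes tested, 50.2% had a negative log2 fold change, and 11.2% were lower after phlebotomy with groups that did not overlap. No marker in the table was at 0, and 0 of those tested were called by edgeR (0.0159% of all genes were). Fewer cells of a type and less RNA per cell cannot be told apart in such libraries, and the part of these markers in the results below was not tested.

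Compared per kilobase of annotated exon, which allows levels of different genes to be set side by side, the receptor genes and Cry1 led in control libraries and Dbp and Per3 came last. Nr1d2 was at 50.1 ± 12.6, Nr1d1 at 37.2 ± 6.62 and Cry1 at 33.6 ± 4.41 CPM per kilobase (SD, n = 3). The control ranges of these 3 neighbours overlapped, though Nr1d2 was above Nr1d1 in each of the 6 libraries. Nr1d1 was above Cry1 in 3 of them. Arntl followed at 12.1 ± 3.41 and Cry2 at 7.89 ± 1.37 CPM per kilobase. Arntl was 2.77-fold below Cry1 with no overlap of control ranges. The ranges of Arntl and Cry2 overlapped, though Arntl was the higher in each of the 6 libraries. Next were Per2 (5.26 ± 0.241), Per1 (5.17 ± 0.520) and Clock (4.32 ± 0.714 CPM per kilobase). The range of Per1 overlapped those of both Per2 and Clock. Dbp, at 0.633 ± 0.165, and Per3, at 0.414 ± 0.0887 CPM per kilobase, lay below all others in each of the 6 libraries, and Dbp above Per3 in each of the 6. The gap from Clock down to Dbp was 6.82-fold, with reads on the exon bases that Dbp shares with Sphk2 not separated. With the longest transcript in place of all exon bases the first 5 and the last 2 places were unchanged, and Per2 went from place 6 to place 8. The levels and folds did move, with Cry1 at 37.1, Arntl at 22.8 and Cry2 at 12.5 CPM per kilobase of longest transcript.

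**Figure D1:**
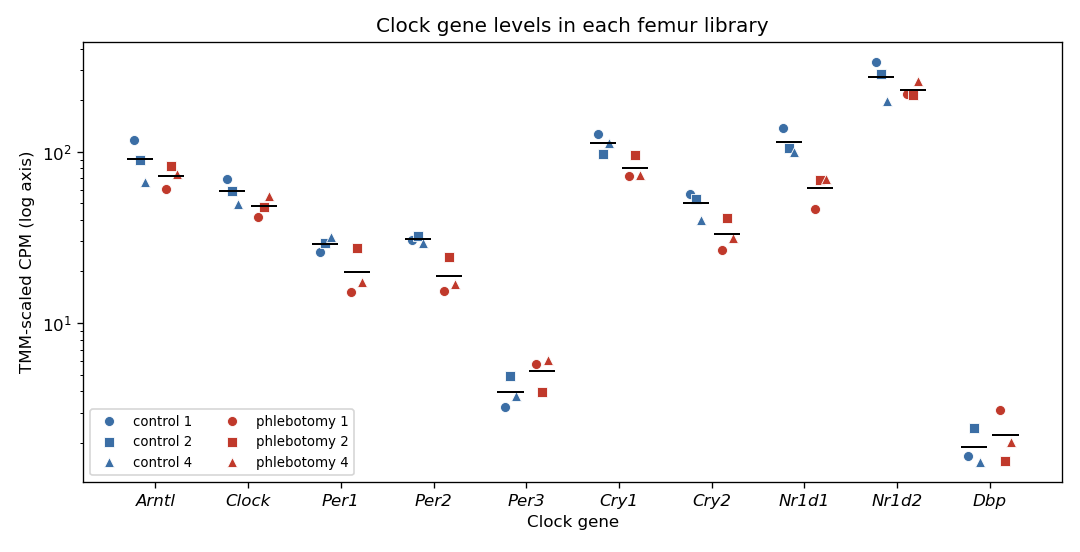
TMM-scaled CPM (log axis) of the 10 clock genes in 3 control (blue) and 3 phlebotomy (red) libraries, with marker shapes for the library number and bars for the group mean. Per2, Cry1 and Nr1d1 are the genes whose groups do not overlap. Phlebotomy 2 is the phlebotomy library nearest to the controls for Per1, Per2 and Cry1, and CPM here is not divided by gene length.

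The 2 activator genes were lower on average after phlebotomy, with overlapping groups. Arntl (ENSMUSG00000055116, chromosome 7, 113207465 to 113314126 on GRCm38), the gene of BMAL1, was at 118, 89.6 and 66.4 CPM in control 1, 2 and 4 and at 60.6, 82.3 and 74.4 CPM in phlebotomy 1, 2 and 4. Controls spread 1.77-fold, more than in any other of the 10 genes, and all phlebotomy values lay below control 2. Its log2 fold change (phlebotomy minus control) was -0.33 ± 0.21 (SE), -0.47 ± 0.23 without phlebotomy 2 and -0.19 without phlebotomy 1. Clock (ENSMUSG00000029238, chromosome 5, 76209868 to 76304792), its partner, was at 69.1, 59.1 and 49.5 CPM in control and 41.7, 47.8 and 55.0 CPM after phlebotomy. Its log2 fold change of -0.30 ± 0.18 (SE) was -0.33 ± 0.20 without phlebotomy 2 and -0.18 without phlebotomy 1. In both genes control 1 was the highest and phlebotomy 1 the lowest library.

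Among the Period genes, which encode the repressors that set the length of the cycle, Per1 and Per2 were lower and Per3 higher on average. Per2 (ENSMUSG00000055866, chromosome 1, 91415982 to 91459324) had the tightest controls of the 10 genes, at 30.6, 32.3 and 29.5 CPM in control 1, 2 and 4, against 15.5, 24.3 and 16.9 CPM in phlebotomy 1, 2 and 4. Every phlebotomy library lay below every control. On the log2 scale the difference was -0.71 ± 0.20 (SE), a 1.63-fold lower level. It was -0.97 ± 0.19 without phlebotomy 2 and -0.56 without phlebotomy 1. Per1 (ENSMUSG00000020893, chromosome 11, 69095217 to 69109960), which hormones and cyclic AMP can also induce, was at 26.1, 29.2 and 32.0 CPM in control and 15.1, 27.6 and 17.3 CPM after phlebotomy. Phlebotomy 2 alone lay within the control range. Its log2 fold change was -0.55 ± 0.22 (SE) and became -0.89 ± 0.20 without that library and -0.36 without phlebotomy 1. Per3 (ENSMUSG00000028957, chromosome 4, 151003652 to 151044665), a Period gene that is dispensable for rhythm, was at 3.25, 4.92 and 3.76 CPM in control and 5.75, 3.97 and 6.07 CPM after phlebotomy, from 33 to 96 counts per library. Its groups overlapped through control 2 and phlebotomy 2. A log2 fold change of 0.39 ± 0.28 (SE) was obtained, with 0.52 ± 0.28 without phlebotomy 2 and 0.34 without phlebotomy 1.

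Both cryptochrome genes, whose proteins are the direct blockers of CLOCK and BMAL1, were lower on average. Cry1 (ENSMUSG00000020038, chromosome 10, 85131700 to 85185064) was at 127, 97.2 and 113 CPM in control 1, 2 and 4 and at 72.4, 96.3 and 73.6 CPM in phlebotomy 1, 2 and 4. The groups did not overlap, but phlebotomy 2 came within 1 CPM of control 2. The log2 fold change was -0.47 ± 0.18 (SE), -0.66 ± 0.18 without phlebotomy 2 and -0.38 without phlebotomy 1. Cry2 (ENSMUSG00000068742, chromosome 2, 92403646 to 92434043) was at 56.8, 52.6 and 40.2 CPM in control and 26.5, 41.2 and 31.3 CPM after phlebotomy, with an overlap of control 4 and phlebotomy 2. Its log2 fold change was -0.59 ± 0.20 (SE), -0.82 ± 0.20 without phlebotomy 2 and -0.43 without phlebotomy 1.

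Of the REV-ERB receptor genes, Nr1d1 had groups that did not overlap and Nr1d2 had groups that did. Nr1d1 (ENSMUSG00000020889, chromosome 11, 98767932 to 98775333), which encodes the heme-binding repressor REV-ERB alpha, was at 138, 105 and 100.1 CPM in control 1, 2 and 4 and at 46.4, 68.8 and 69.0 CPM in phlebotomy 1, 2 and 4. All phlebotomy libraries lay below all controls, phlebotomy 2 included. The log2 fold change of -0.90 ± 0.20 (SE) is a 1.86-fold lower level. It was -1.03 ± 0.22 without phlebotomy 2 and -0.70 without phlebotomy 1, the ends of its range over the 6 fits that left out a library. Of the exon bases of Nr1d1, 8.55% are shared with Thra, a hormone receptor gene on the opposite strand. The kit does not mark strand, so reads there cannot be told apart. Thra itself had a log2 fold change of -0.22 ± 0.20 (SE), and -0.37 without phlebotomy 2, with overlapping groups. Nr1d2 (ENSMUSG00000021775, chromosome 14, 18204054 to 18239127), the gene of the paralog REV-ERB beta, was at 332, 284 and 198 CPM in control and 217, 214 and 258 CPM after phlebotomy. The lowest library was control 4, and the log2 fold change was -0.24 ± 0.20 (SE), -0.23 ± 0.23 without phlebotomy 2 and -0.17 without phlebotomy 1.

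Dbp (ENSMUSG00000059824, chromosome 7, 45705088 to 45710203), an output gene that swings widely over the day in many tissues, was scarce in every library. Control 1, 2 and 4 held 17, 45 and 23 counts of it, or 1.68, 2.46 and 1.55 CPM. Phlebotomy 1, 2 and 4 held 52, 24 and 32 counts, or 3.11, 1.56 and 2.02 CPM. Groups overlapped, phlebotomy 1 being the highest library. The log2 fold change was 0.23 ± 0.37 (SE), 0.39 ± 0.37 without phlebotomy 2 and -0.07 without phlebotomy 1, so its sign rested on that library. Sphk2, on the opposite strand, shares 18.0% of the exon bases of Dbp. In control libraries it was at 4.31 ± 0.69 CPM per kilobase (SD, n = 3), above the 0.633 of Dbp. Reads there cannot be told apart by strand, and their part in the level, place and fold change of Dbp was not tested. The log2 fold change of Sphk2 was -0.23 ± 0.22 (SE), and -0.47 without phlebotomy 2.

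Taken by library, control 1 held the highest level of 6 of the 10 genes and phlebotomy 1 the lowest of 7. On the log2(CPM + 0.5) scale, centred on the mean of the 6 libraries, the 10 genes had a median of 0.40 in control 1, 0.22 in control 2 and -0.05 in control 4. In phlebotomy 1, 2 and 4 their medians were -0.39, -0.06 and -0.18. The medians of control 4 and phlebotomy 2 were thus near each other, but single genes differed in both directions. Nr1d1 was at 0.27 in control 4 and -0.26 in phlebotomy 2, and Arntl at -0.26 and 0.04.

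**Figure D2:**
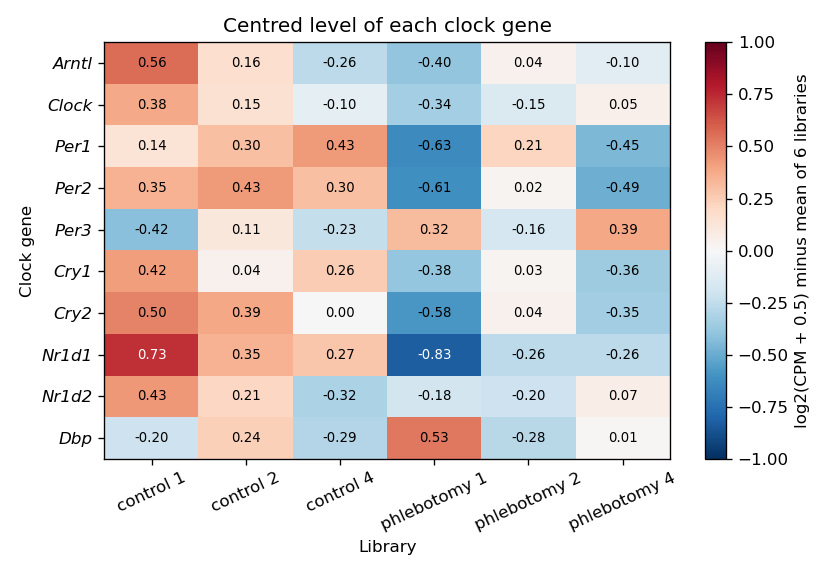
Centred log2(CPM + 0.5) of each clock gene (rows) in each library (columns), as the difference from the gene's mean over 6 libraries, with red above and blue below it. Nr1d1 runs from 0.73 in control 1 to -0.83 in phlebotomy 1, and Per3 and Dbp are at 0.32 and 0.53 in phlebotomy 1 where the other 8 genes are below 0.

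Of the 10 genes, 8 had a negative log2 fold change (as had 50.2% of all genes tested) and the median was -0.40, against -0.003 over all genes. Groups did not overlap for 3 genes, all lower after phlebotomy (11.2% of all genes), and for 0 genes higher (10.1%). Without phlebotomy 2 the groups did not overlap for 5 lower genes and 1 higher gene, where 22% and 21.6% of all genes do not. edgeR's quasi-likelihood test called 0 of the 10 over all genes (0.0159% of all genes called), with adjusted p from 0.139 (Nr1d1) to 0.781 (Dbp). At an unadjusted p under 0.05 there were 5 lower genes, Per1, Per2, Cry1, Cry2 and Nr1d1 (9.42% of all genes), and 0 higher (7.01%). That count was 2 without phlebotomy 1 (4.14% of all genes) and 3 without phlebotomy 4 (6.24%). DESeq2 called Nr1d1 alone (adjusted p 0.00981, with 1.51% of all genes called and 1.11% called lower), and limma-voom called 0 (0% of all genes). DESeq2 gave no adjusted p for Per3 and Dbp, so these could not be called there. Without phlebotomy 2, edgeR called Per1, Per2, Cry2 and Nr1d1 lower (adjusted p 0.0348, 0.0277, 0.0429 and 0.0320, with 4.74% of all genes called and 2.99% called lower), and Cry1 had an adjusted p of 0.0526. Over 16 alternatives the adjusted p ran from 0.00105 to 0.613 for Nr1d1, 0.0277 to 0.613 for Per2, 0.0348 to 0.704 for Per1, 0.0429 to 0.628 for Cry2 and 0.0526 to 0.628 for Cry1. Nothing is read from these counts, since the contrast is that in which the list was proposed.

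**Figure D3:**
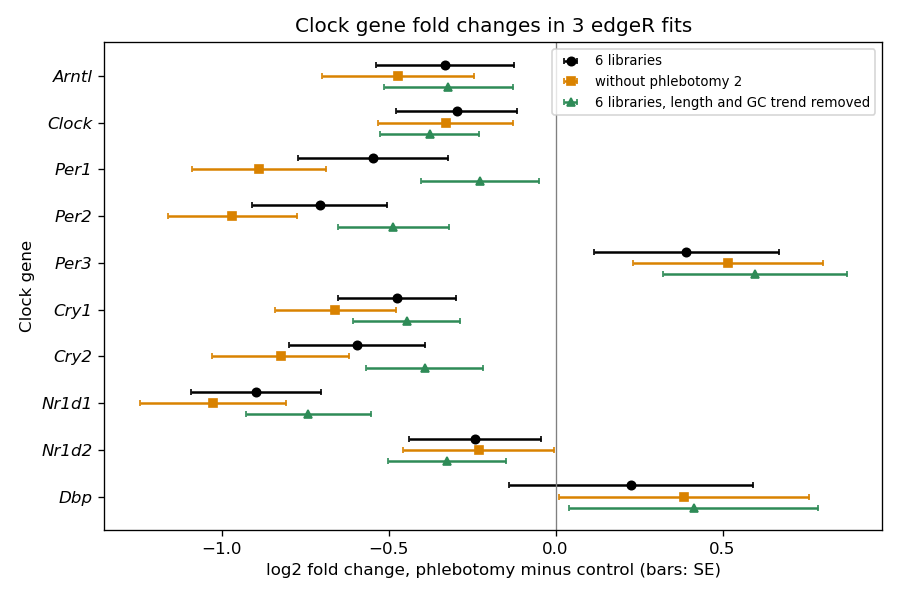
log2 fold changes (phlebotomy minus control, bars for SE) of the 10 clock genes from edgeR on 6 libraries (black), without phlebotomy 2 (orange) and with a length and GC trend removed (green). Nr1d1 is lowest in the fit of 6 libraries at -0.90, and Per1 moves from -0.55 to -0.89 and -0.23 between the fits.

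Over 18822 genes, longer and GC-richer transcripts had lower log2 fold changes (Spearman's rho of -0.246 with length and -0.230 with GC). The genes are not independent replicates and share the same libraries. The longest transcript exceeded the median of 2912 bases in 8 of the 10 clock genes. With the trend on both removed in each library, the log2 fold change of Nr1d1 was -0.74 and that of Per2 -0.49. Per1 went to -0.23 ± 0.18 and Cry2 to -0.39 ± 0.18, while Per3 went to 0.60 ± 0.28 and Dbp to 0.41 ± 0.37 (SE). All 10 kept the sign of their fold change in that fit, and 0 were called (0.0106% of all genes). At an unadjusted p under 0.05 there were 5 lower genes, Clock, Per2, Cry1, Cry2 and Nr1d1 (8.52% of all genes), and 1 higher gene, Per3 (6.03%). Clock, at -0.38 ± 0.15 (SE) in that fit, thus entered the lower genes and Per1 left them.

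Ratios of clock genes inside a library do not depend on how libraries are scaled to each other. Of 9 ratios computed, 3 did not overlap between groups, each holding Nr1d1 or Per2, whose own groups did not overlap. The share over all pairs of genes was not computed. For single genes it was 11.2% lower and 10.1% higher after phlebotomy. The length and GC trend was not removed from the ratios. Nr1d1 over Arntl, the repressor against its target, stood at 1.17, 1.17 and 1.51 in control 1, 2 and 4. After phlebotomy it stood at 0.766, 0.836 and 0.927 (libraries 1, 2 and 4). Nr1d1 thus had more counts than Arntl in every control and fewer in every phlebotomy library, with no correction for their lengths. Nr1d1 over its paralog Nr1d2 took the values 0.415, 0.370 and 0.507 in control libraries, while those after phlebotomy were 0.214, 0.322 and 0.267. Controls had 0.106, 0.152 and 0.128 for Per3 over Per2, and phlebotomy libraries 0.372, 0.164 and 0.360, with phlebotomy 2 just above control 2. The ratio of Per2 to Per1 overlapped, at 0.922 to 1.17 in control and 0.882 to 1.02 after phlebotomy, as did that of Clock to Arntl, at 0.588 to 0.746 and 0.581 to 0.740.

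**Figure D4:**
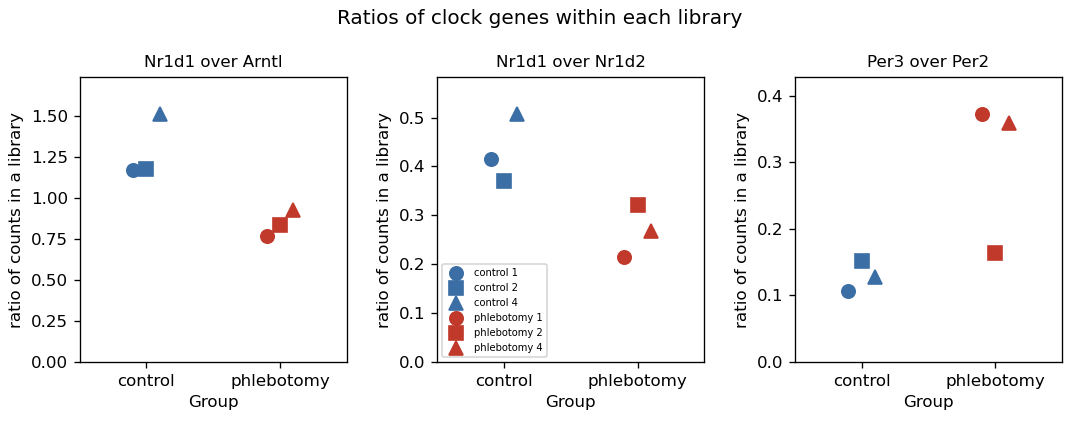
Ratio of the counts of 2 clock genes in each library, by group, with marker shapes for the library number and axes from 0. Nr1d1 over Arntl lies between 1.17 and 1.51 in control and between 0.766 and 0.927 after phlebotomy, and phlebotomy 2 is closest to the controls for Nr1d1 over Nr1d2 and for Per3 over Per2.

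Beyond the 10 genes, 28 other genes of the clock were listed by role, of which 27 were tested and Arntl2, with few counts, was not. edgeR called 0 of the 27 over all genes (0.0159% of all genes called), and so did limma-voom (0%). DESeq2 also called 0 (1.51% of all genes called), but gave no adjusted p for Npas2, Rorb, Hlf and Fbxl21, so these could not be called. With edgeR, 9 were lower (9.42%) and 1 higher (7.01%) at an unadjusted p under 0.05. The lower count was 3 without phlebotomy 1 (4.14%), 3 without phlebotomy 4 (6.24%), 5 without control 1 (5.73%) and 4 with upper-quartile scaling (6.31%). The median log2 fold change was -0.32, with 24 of 27 negative (50.2% of all genes). Groups did not overlap for 10 genes, all lower after phlebotomy (11.2%), and for 14 lower and 2 higher genes without phlebotomy 2 (22% and 21.6%). Without that library edgeR called Tef lower and Rorb higher (adjusted p 0.0406 and 0.0451, where 2.99% and 1.75% of all genes were called). Over the alternatives these adjusted p reached 0.643 and 0.640. This list too was chosen with earlier results of these data known, so its counts are a description and nothing is supported with them.

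In the core loop, Bhlhe40, a repressor that competes for E-boxes and also answers low oxygen, was at 497, 438 and 369 CPM in control 1, 2 and 4 and at 209, 318 and 299 CPM in phlebotomy 1, 2 and 4. Its groups did not overlap (log2 fold change -0.66 ± 0.20 SE, edgeR adjusted p 0.178). Npas2, a paralog of Clock, was at 4.21 to 5.33 and 3.03 to 3.84 CPM, also without overlap (-0.50 ± 0.27, edgeR adjusted p 0.355). Ciart, a repressor of CLOCK and BMAL1, overlapped (-0.41 ± 0.23, edgeR adjusted p 0.392). Rora, which opposes the REV-ERB receptors at ROR elements, did not overlap, at 71.6 CPM in its lowest control and 69.3 CPM in its highest phlebotomy library (-0.32 ± 0.16, edgeR adjusted p 0.340). Its paralog Rorb was at 2.47, 2.13 and 1.34 CPM in control and 4.31, 1.82 and 5.88 CPM after phlebotomy (1.03 ± 0.40, edgeR adjusted p 0.241). Rorb was thus high in phlebotomy 1 and 4 and within the control range in phlebotomy 2.

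Of the relatives of Dbp, Tef had groups that did not overlap, at 52.2, 49.8 and 46.2 CPM in control and 25.9, 43.8 and 33.1 CPM after phlebotomy (log2 fold change -0.53 ± 0.20 SE, edgeR adjusted p 0.229). Hlf, another activator of D-boxes, overlapped at 2.76 to 5.98 and 3.10 to 4.73 CPM. Nfil3, which represses through the same D-boxes, also overlapped, at 128 to 178 and 117 to 162 CPM (-0.13 ± 0.18). Of 9 kinases, ligases and proteases that set the stability of PER and CRY, 8 had negative log2 fold changes and the median was -0.32. Csnk1e, a kinase that marks PER for destruction, was at 56.7 to 78.8 and 39.2 to 56.5 CPM (-0.46 ± 0.19, edgeR adjusted p 0.254). Usp7 and Gsk3b had log2 fold changes of -0.42 each. Of 8 output genes 7 were negative (median -0.35), among them the transcription factors Klf10 and Klf9 at -0.48 and -0.45 and the membrane protein gene Tspan4 at -0.46. Nampt, which makes a precursor of NAD, was the exception at 89.5 to 92.1 and 87.4 to 138 CPM (0.33 ± 0.18, edgeR adjusted p 0.376).

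**Figure D5:**
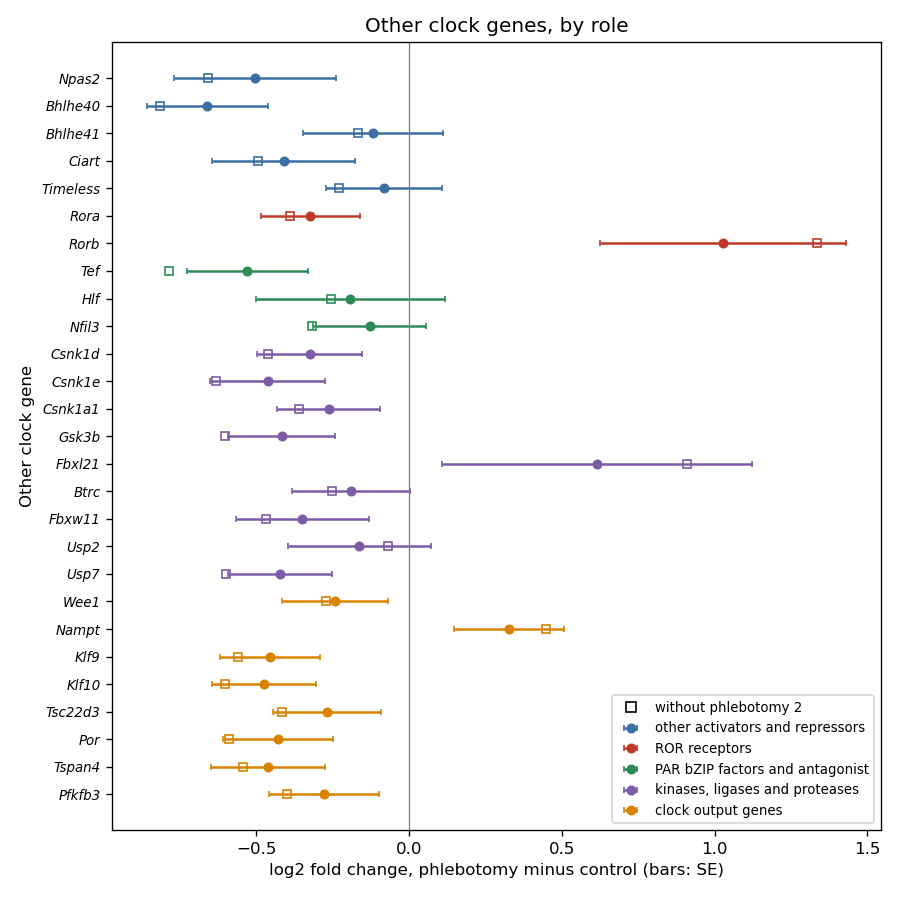
log2 fold changes (phlebotomy minus control, bars for SE) of 27 other clock genes, coloured by role, on 6 libraries (filled) and without phlebotomy 2 (open squares). Rorb, Fbxl21 and Nampt are the 3 genes to the right of 0 on 6 libraries, and Tef lies at -0.53 on 6 libraries and -0.78 without phlebotomy 2.

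Per1 is known to answer glucocorticoid hormone and the CREB pathway directly, so genes of those signals are given beside it. Of 6 glucocorticoid response genes (Klf9 and Tsc22d3 are also among the output genes) all had negative log2 fold changes (median -0.50). With edgeR, 3 were at an unadjusted p under 0.05 (9.42% of all genes lower), and 1 without phlebotomy 1 (4.14%). edgeR called 0 over all genes (0.0159%), as did limma-voom (0%). DESeq2 called 0 as well (1.51% of all genes called), but gave no adjusted p for Zbtb16. Sgk1, a kinase induced by the hormone, and Dusp1, a phosphatase, had log2 fold changes of -0.57 ± 0.23 and -0.55 ± 0.20 (SE), and -0.71 and -0.77 without phlebotomy 2. Of 5 CREB or immediate early genes all were negative as well (median -0.71), though Crem was positive with DESeq2, limma-voom, RLE and upper-quartile scaling among others, and 4 had an unadjusted p under 0.05 (2 without phlebotomy 1). Of these 5, edgeR called 0, DESeq2 called Egr1 (adjusted p 0.000196, with 1.51% of all genes called) and limma-voom called 0. Nr4a1, Fos and Egr1 had log2 fold changes of -0.75, -0.71 and -1.04, and Crem of -0.01. Without phlebotomy 2 edgeR called these first 3 lower (adjusted p 0.0184, 0.0459 and 0.0302, with 2.99% of all genes called lower). Over the alternatives their adjusted p reached 0.626, 0.627 and 0.613. Both lists were chosen with earlier results of these data known, and the part of these signals in the levels of Per1 was not tested.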

How the data were processed

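RNA of 6 femur libraries was made into Nextera XT libraries and sequenced on a HiSeq1500 in paired-end reads of 126 bases, per the labels' protocols. The submitters' processing notes list DESeq2, edgeR, limma and STAR (2.7.3a and 2.5.2a), and as builds mm10 and GRCm38.p3, with no roles. No source used here gives the counting program or its strand setting. The deposited tables hold raw counts per gene, the same counts after a filter on low rows, and a signal, which per the file's name is CPM with TMM and was found to be the filtered counts times a constant per column. The 19 rows that name no mouse gene (0.00278% to 0.0284% of counts) were left out.

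Counts were filtered with filterByExpr (minimum count 10), scaled with TMM and tested with edgeR 4.0.16 (robust quasi-likelihood, no covariates, R 4.3.3), with Benjamini-Hochberg adjustment over 18838 genes and a threshold of 0.05. CPM in the text is this TMM-scaled value, and SE is the log2 fold change over the square root of F. The deposited signal entered only limma-trend fits with pseudocounts of 0.5 and 1. With 11219243 to 19015588 gene counts per library, 3 counts are 0.164 to 0.296 CPM. Other alternatives were RLE and upper-quartile scaling, 2 filters, DESeq2 1.42.0, limma-voom (limma 3.58.1), the column number as a block, and omitting each library in turn. Removal of a length and GC trend (loess, span 0.3) was added after seeing the data. The edgeR step was tested on simulated data. Coordinates and exon lengths came from GENCODE M21 (GRCm38) and promoters from RefSeq (GRCm38.p6). Figures were drawn with matplotlib 3.10.9.

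The members, the other lists, the motifs and the naming rule were chosen with earlier results of these data known. Named are all 10 members, up to 4 genes of each other role by smallest p with 7 set ones (2 genes of the list are not reported here), the signal genes, and the 3 genes most correlated with Arntl and with Dbp. Column numbers (1, 2, 4) differ from title numbers (1 to 3), so a column was given a group but no single sample. Separate animals are not stated in the labels, and p-values then cover only the spread between libraries, which may be technical. No library pair agreed within sampling noise.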

Additional observations from a re-analysis of the deposited data

Results flagged for a closer look

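Phlebotomy 2 carried reads on sequences outside the mouse genes. Rows that name no mouse gene took 0.0284% of its counts, against 0.00278% to 0.00361% in the other 5 libraries, and the excess lay on Neo (2288 counts), EGFP (920), DsRed (403), Venus (75) and a Lamp3 transgene (24). In the 3 control libraries these rows held at most 12, 6, 0, 0 and 0 counts. A GNAS transgene row held 372 to 619 counts in all 6 libraries. The source of these reads was not tested, and the clock gene values are given with and without that library.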

How the results depend on the processing

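Over all genes, edgeR called 3, and this count was 285 in DESeq2, 0 in limma-voom, 577 with no low-count filter and 20 on the authors' filtered genes. Leaving out a library gave 0 (phlebotomy 1) to 963 (phlebotomy 2), with 14 without control 2 and 7 without control 4. Clock genes called went from 0 to 1 in DESeq2 (Nr1d1), 2 with no low-count filter (Per2 and Nr1d1) and 0 to 4 with a library left out. Other clock genes called went from 0 to 1 with no low-count filter (Bhlhe40) and 0 to 2 with a library left out. The cause was not tested. Of 160 log2 fold changes of the 10 clock genes over 16 alternatives, 1 reversed, that of Dbp without phlebotomy 1 (-0.071, with a range of -0.071 to 0.45 over libraries left out). Of 432 of the other clock genes 4 reversed. Timeless reversed without phlebotomy 1 (range -0.23 to 0.013) and with the length and GC trend removed (0.13, added after seeing the data). Hlf reversed without control 4 (range -0.44 to 0.030) and Fbxl21 without phlebotomy 4 (range -0.090 to 0.91). Upper-quartile scaling moved the median of all genes from -0.003 to 0.08, with 1902 higher and 1188 lower genes at an unadjusted p under 0.05 in place of 1321 and 1774, and 5 clock genes lower in both. With the column number as a replicate block edgeR called 3 genes in all, 0 clock genes and 0 other clock genes. Deviations from the group means had an r of -0.110, -0.108 and -0.0616 in same-numbered libraries and of -0.0241 to 0.106 in the others. Deviations from a mean of 3 libraries are tied to each other, so these r cannot decide whether same-numbered libraries share more than a number. Depth limits Dbp and Per3, with 193 and 432 counts in all.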

Other observations

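The genes most like a clock gene over the 6 libraries were searched among 10570 named genes of at least 5 CPM, by Pearson's r of log2(CPM + 0.5). For Arntl these were Creb3 (r = 0.997), Rreb1 (0.994) and Dennd2c (0.992), each with Spearman's rho of 1. Creb3, a membrane-bound transcription factor, was at 66.6, 57.3 and 46.9 CPM in control 1, 2 and 4 and at 43.5, 53.2 and 49.2 CPM in phlebotomy 1, 2 and 4. With 6 libraries 178 genes had an r over 0.95 with Arntl, so the 3 named are a description of these libraries. For Dbp they were the noncoding Snhg5 (r = 0.997), Pdcd2l (0.982) and Acaca (0.976), the gene of an enzyme of fatty acid synthesis, with 13 genes over 0.95. Snhg5 spanned 27.5 to 35.4 CPM while Dbp spanned 1.55 to 3.11 CPM.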
